A study of Mus musculus with 15 samples.

Results

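The 8 genes described here carry signals between nerves, epithelium and group 2 innate lymphoid cells (ILC2s). *Calca* encodes a ligand, *Calcrl*, *Ramp1* and *Ramp3* encode parts of its receptors, *Nmur1* and *Vipr2* encode receptors of 2 other neuropeptides, *Tph1* encodes an enzyme of serotonin synthesis and *Ret* encodes a receptor of neurotrophic factors. They were chosen by name, as 8 of the 24089 gene symbols (24690 entries) in the table of each library, by a rule that uses the symbols alone. ILC2s are tissue lymphocytes without antigen receptors that secrete type 2 cytokines such as IL-5 and IL-13, and in mucosal tissues they lie close to nerve endings. Neuromedin U released by neurons activates ILC2s through NMUR1, vasoactive intestinal peptide (VIP) acts through receptors that raise cAMP, and calcitonin gene-related peptide (CGRP) binds a receptor made of the G protein-coupled chain CALCRL and the single-pass partner RAMP1. CALCRL paired with RAMP2 or RAMP3 instead forms receptors that prefer adrenomedullin.

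RNA-seq was performed on 15 libraries in 4 conditions. ILC2s of the lamina propria (LP, the connective tissue of the mucosa) were sorted as CD45+Lin-CD127+Sca1+CD25+KLRG1+ cells from *Tgfbr2*f/fER-Cre+ mice on the C57BL/6 background, aged 8 to 12 weeks at treatment. Tamoxifen at 1 mg per day for 5 days, given intraperitoneally, activates Cre, which deletes the floxed gene of TGF-β receptor II. Mice so treated gave the *Tgfbr2*-/- libraries (3 of LP ILC2s) and mice given sunflower oil the WT libraries (4), and mice were killed 1 day after the last dose. Both groups carry the floxed alleles and ER-Cre, so tamoxifen and the deletion cannot be told apart, and the promoter of ER-Cre is not given in the sources used here. ILC2 precursors (ILC2p) of the bone marrow (BM) were sorted as CD45.2+Lin-CD127+α4β7+CD25+ cells (4 WT and 4 *Tgfbr2*-/- libraries). By the series' design they came from Control/45.1 and *Tgfbr2*-/-/45.1 chimeras, in which BM of *Tgfbr2*f/fER-Cre+ mice shared irradiated CD45.1 hosts with an equal part of CD45.1 BM for 6 weeks, whereas the sample labels name WT and *Tgfbr2*-/- mice. Under these names the study's chimeras had donors treated with tamoxifen or oil before the transfer.

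Each cell type was sequenced in 2 experiments. Experiment 1 of the LP ILC2s held 2 libraries of each genotype and experiment 2 held 2 WT libraries and 1 *Tgfbr2*-/- library, while each ILC2p experiment held 2 libraries of each genotype. No experiment held both cell types, so the cell type, the experiment and the kind of animal (treated mouse or chimera) cannot be told apart. Nothing in the labels says which libraries came from separate animals or how many animals were pooled, so p-values measure only the spread between these libraries. The libraries held between 12167066 and 32114265 gene counts for LP ILC2s and between 10957021 and 35961215 for ILC2p. Levels are given as CPM, counts brought to the same total in every library and then TMM scaled (by a factor per library that sets the bulk of genes level), and are compared between genes as the deposited RPKM, which also divides by transcript length. A gene was called when edgeR's quasi-likelihood test gave a Benjamini-Hochberg adjusted p under 0.1, over all genes tested, with a fold change over 1.5. All library values below run in the order experiment 1 replicates 1 and 2, then experiment 2.

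The sorted cells were first checked against marker lists. All 13 ILC2 markers, *Gata3* the most abundant, had counts in all 7 LP libraries, and their summed level was 8318 to 11320 CPM. In WT ILC2p the sum was 8365 to 12270 CPM, but in the libraries labelled *Tgfbr2*-/- ILC2p it was 3954 to 5838 CPM, 0.459 times the WT mean, and 3 of the 13 markers were at 0 in both libraries of experiment 1, where the WT libraries had 1 and 2 at 0. The *Tgfbr2*-/- ILC2p libraries carried other cells' genes instead: the 8 neutrophil markers summed to 76080 to 92690 CPM (6.86% to 7.83% of all counts before scaling, led by *S100a8*), against 786 to 1553 CPM in WT ILC2p and at most 3.71 CPM in LP ILC2s. Macrophage and DC markers, led by *Lyz2*, summed to 11250 to 12850 CPM there against 42.6 to 85.5 CPM in WT ILC2p, and basophil markers, led by *Prss34*, to 1209 to 1903 CPM against 111 to 297 CPM. The lineage antibodies of the study's sorts included Gr-1 and CD11b, which mark neutrophils and myeloid cells. Every value of the *Tgfbr2*-/- ILC2p below therefore comes from libraries in which these markers moved with the genotype, and their part in the differences was not tested. In such bulk libraries fewer cells that express a gene and less of its RNA per cell cannot be told apart.

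**Figure D1:**
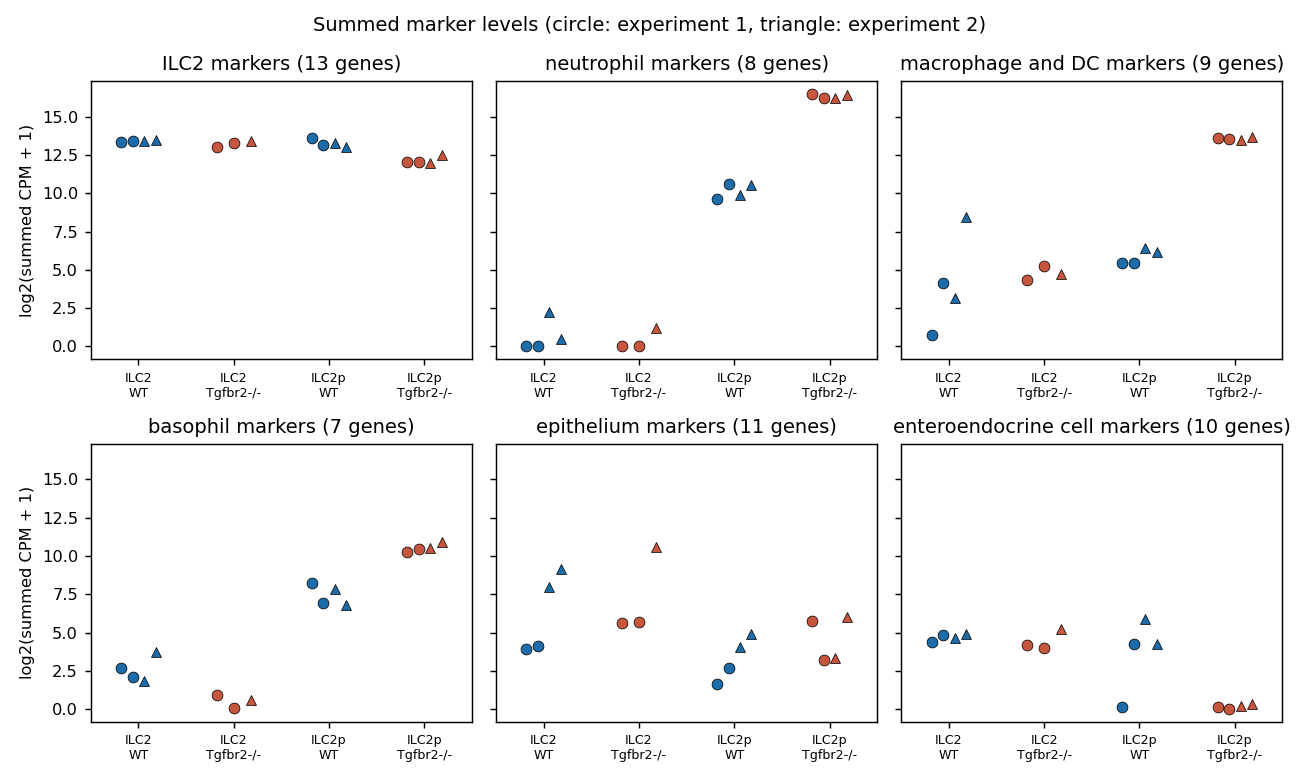
Summed CPM of 6 marker lists in each library, as log2(summed CPM + 1), with circles for experiment 1 and triangles for experiment 2 in blue (WT) and red (*Tgfbr2*-/-). The 4 *Tgfbr2*-/- ILC2p libraries lie at 76080 to 92690 CPM for neutrophil markers, above all WT ILC2p libraries, and below every other library for ILC2 markers (3954 to 5838 CPM).

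Markers of other cell types, some of which are known to express these genes, were then summed. Enteric neuron and glia markers summed to at most 1.46 CPM in LP ILC2s, and 10 enteroendocrine markers to 14.9 to 36.7 CPM. *Pcsk1* led the enteroendocrine list in 6 of the 7 libraries, while *Chga*, which defines those cells, was at most 0.488 CPM in WT and at most 4.79 CPM in *Tgfbr2*-/- libraries. In the *Tgfbr2*-/- library of experiment 2 *Chgb* led the list with 27.1 CPM, against at most 0.0562 CPM in WT and 2.67 CPM or less in the other *Tgfbr2*-/- libraries, and its part in the values of that library was not tested. The mast cell list (190 to 492 CPM) consisted almost wholly of *Kit*, with *Cpa3* at most 5.51 CPM. Epithelial markers differed between the experiments, with 14.4 to 51.4 CPM in experiment 1 and 245, 567 and 1540 CPM in the WT replicates 1 and 2 and the *Tgfbr2*-/- library of experiment 2. In LP ILC2s the T cell list summed to 167 to 264 CPM (led by *Lck*), the endothelial list to 58.6 to 540 CPM (led by *Pecam1* in 6 libraries), the B cell and plasma cell list to 80.1 to 470.0 CPM, the macrophage and DC list to 0.654 to 348 CPM, the basophil list to at most 12.3 CPM and the erythroid and megakaryocyte list to at most 24.8 CPM. In ILC2p the corresponding sums were 30.2 to 244 CPM for T cells, 3.44 to 125 CPM for endothelium, 1.67 to 589 CPM for B and plasma cells, 28.1 to 535 CPM for erythroid cells and megakaryocytes, 213 to 434 CPM for mast cells (led by *Cpa3* in 6 libraries and *Kit* in 2), 2.05 to 62.6 CPM for epithelium, at most 58.6 CPM for enteroendocrine cells and at most 6.96 CPM for neurons and glia. Within both LP experiments several of these lists also moved with the genotype. For the B cell and plasma cell list the WT sums were 470.0 and 430.2 CPM against 80.1 and 99.5 CPM in *Tgfbr2*-/- libraries of experiment 1, then 125 and 255 against 117.5 CPM in experiment 2. For the endothelial list they were 181 and 207 against 73.8 and 85.4 CPM, then 101.6 and 540 against 58.6 CPM. The mast cell list (*Kit*), the basophil list and the ILC2 list were likewise lower in every *Tgfbr2*-/- LP library than in the WT libraries of its experiment, and the epithelial and the erythroid and megakaryocyte lists higher. The part of these markers in the differences between LP genotypes given below was not tested. The gate genes *Itga4* and *Itgb7* (α4β7) summed to 663 to 2232 CPM in ILC2p and 1448 to 2117 CPM in LP ILC2s.

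*Tgfbr2* itself did not separate the genotypes. It was at 149 to 261 CPM in WT and at 96.3 to 206 CPM in *Tgfbr2*-/- LP ILC2s (log2 fold change -0.46, SE 0.24, adjusted p = 0.898), and at 0.712 to 232 CPM in WT and at 30.8 to 218 CPM in *Tgfbr2*-/- ILC2p (-0.21, SE 1.21, adjusted p = 0.989). Counts are over the whole transcript and the position of the deleted part is not given in the sources used here, so these values do not check the labels. The genotypes are used as labelled.

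The ILC2p libraries also detected genes less evenly than the LP libraries. For each library, genes that reached 50 CPM in the median over the remaining ILC2p libraries were taken, and 14.1% of them were under 1 CPM in WT replicate 1 of experiment 1, 12.1% and 13.8% in the *Tgfbr2*-/- replicates 1 and 2 of experiment 1 and 8.36% in *Tgfbr2*-/- replicate 2 of experiment 2, against 1.56% to 3.66% in the other 4 libraries and at most 0.0285% in any LP library. An ILC2p library with a gene at or near 0 is read below with these shares in view.

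In WT LP ILC2s, *Nmur1* was the most abundant of the 8 transcripts per length and *Calcrl* the least. The median RPKM was 688 for *Nmur1*, 366 for *Calca*, 186 for *Ramp3*, 38.1 for *Ret*, 31.0 for *Vipr2*, 28.4 for *Ramp1*, 20.5 for *Tph1* and 2.30 for *Calcrl*, which placed *Nmur1* at rank 90 of 13340 genes with a median above 0 and *Calcrl* at rank 9062. Neighbours in this order often overlapped: *Nmur1* (592 to 869 RPKM) and *Calca* (178 to 608 RPKM) did, *Calca* and *Ramp3* (127 to 246 RPKM) did, and so did *Ret* (34.4 to 47.2 RPKM) and *Vipr2* (10.2 to 47.1 RPKM), *Vipr2* and *Ramp1* (12.6 to 33.1 RPKM), and *Ramp1* and *Tph1* (3.13 to 52.5 RPKM). *Ramp3* lay above *Ret* in every library, and *Calcrl* (1.15 to 3.5 RPKM) overlapped with *Tph1* in its highest library alone. In WT ILC2p the order was *Nmur1* (288 RPKM), *Ramp1* (148), *Calca* (91.7), *Vipr2* (26.0), *Ramp3* (9.41), *Calcrl* (4.50), *Tph1* (0.0191) and *Ret* (0.00408). There *Nmur1* (210 to 373 RPKM) lay above *Ramp1* (120 to 200 RPKM) and *Ramp1* above *Calca* (37.8 to 112 RPKM) in every library, and from *Calca* to *Calcrl* each gene overlapped with its neighbour. *Tgfbr2*-/- LP ILC2s kept the order of the last 5 genes but had *Calca* first, at 664 RPKM against 411 for *Nmur1*, with overlapping ranges, and in *Tgfbr2*-/- ILC2p *Ramp1* (145 RPKM) and *Nmur1* (119 RPKM) led with overlapping ranges while *Ramp3* and *Ret* had a median of 0.

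**Figure D2:**
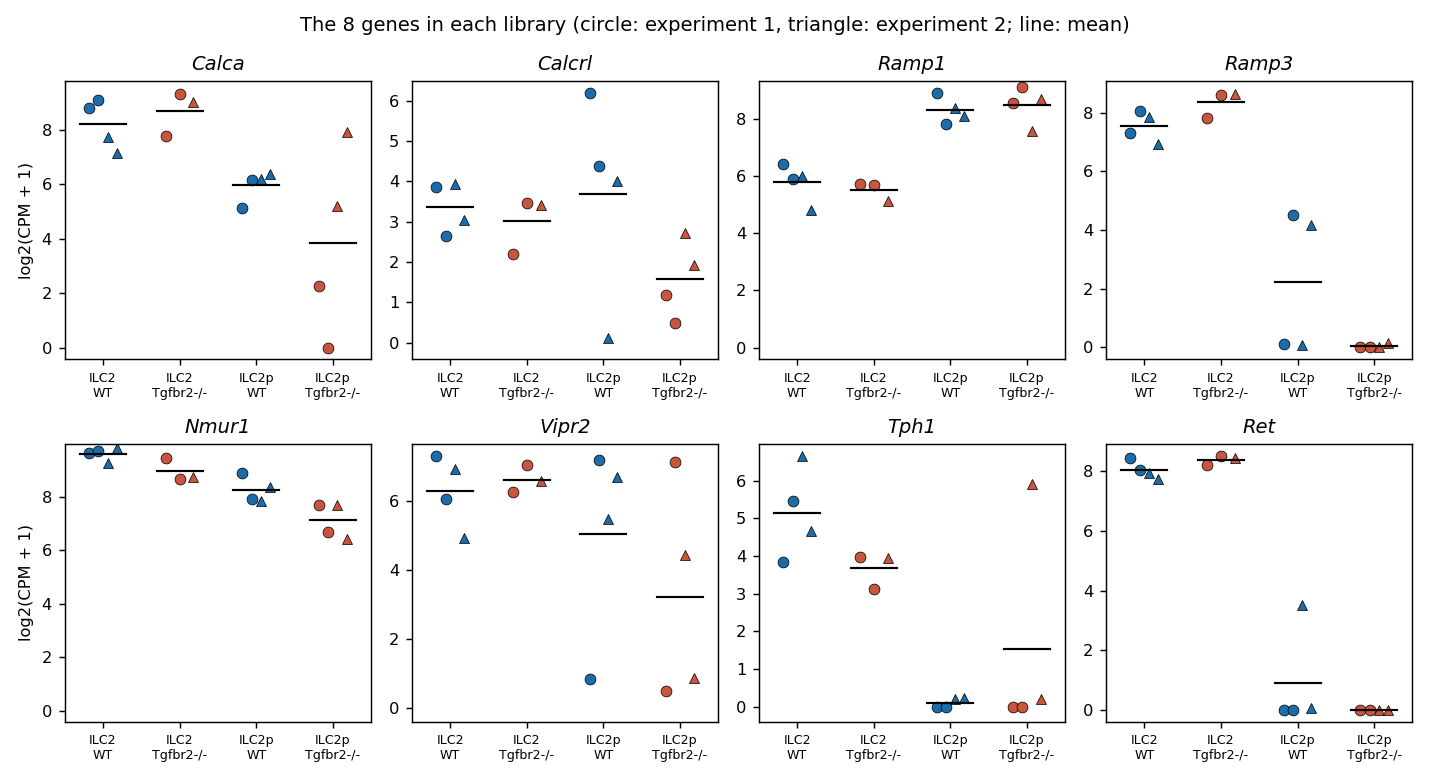
Level of each of the 8 genes in every library as log2(CPM + 1), with circles for experiment 1, triangles for experiment 2, blue for WT, red for *Tgfbr2*-/- and a line at the mean. *Ramp1* is higher in all ILC2p than in all LP ILC2 libraries, *Ret* and *Ramp3* are at or near 0 in *Tgfbr2*-/- ILC2p, and *Nmur1* is lower in every *Tgfbr2*-/- library than in the WT libraries of its own experiment.

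The comparison of WT LP ILC2s with WT ILC2p asked how these genes differ between tissue cells and marrow precursors. *Nmur1*, *Calca* and *Tph1* were higher and *Ramp1* was lower in LP ILC2s, so 4 of the 8 genes were called, where 268 of 10468 genes tested (2.56%) were called. *Ramp3* and *Ret* were 19.8-fold and 103-fold higher in mean CPM but were not called. The median log2 fold change of the 8 was 1.85, against -0.09 over all genes tested. *Ramp3*, *Tph1* and *Ret* entered the test through the LP libraries alone, since at most 2 of the 4 ILC2p libraries held more than 7 counts, as did *Calcrl*, with 3 counts in 1 of them, so these figures describe the genes and support nothing further. The groups did not overlap for 5 genes higher in LP ILC2s (*Nmur1*, *Ramp3*, *Calca*, *Tph1* and *Ret*; 6.34% of genes tested lay wholly above) and for 1 gene lower (*Ramp1*; 4.05% lay wholly below). Within experiment 1 of each cell type, or experiment 2 of each, none of the 8 was called.

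Between the *Tgfbr2*-/- LP ILC2s and *Tgfbr2*-/- ILC2p, which share no library with the WT comparison, *Nmur1*, *Ramp3* and *Ret* were higher and *Ramp1* was lower in LP ILC2s. Again 4 of 8 genes were called, where 1575 of 11469 genes tested (13.7%) were called. *Ramp3* and *Ret*, among the 4, entered the test only through the LP libraries, so the count is a description. The median log2 fold change of the 8 was 1.60, against -0.27 over all genes tested, with 1047 genes called higher and 528 lower. That balance depended on the processing, with 1135 higher and 1101 lower by DESeq2, 137 and 252 among genes with at least 10 counts in every library, and 8 and 36 in experiment 2 alone. The median over all genes shifted to 0.11 with library size scaling, -0.44 with RLE scaling and 0.34 with upper quartile scaling (1142 and 409 genes called with library size, 1233 and 357 with upper quartile scaling), and the direction of the 4 called genes held under each. Non-overlapping groups were seen for the same 3 genes above (16.5% of genes tested lay wholly above) and for *Ramp1* below (7.97% lay wholly below). *Ramp3*, *Tph1* and *Ret* again entered the test through the LP libraries, and the libraries compared differ in neutrophil, macrophage and basophil markers as given above.

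Deletion of *Tgfbr2* was compared with WT within each cell type. In LP ILC2s none of the 8 genes was called by edgeR, and neither was any of the 11981 genes tested (0.0%). Of the 8, 3 (*Nmur1*, *Ramp3* and *Tph1*) had an unadjusted p under 0.05, as had 557 genes (4.65%). DESeq2 called 338 genes (2.82%) and 1 of the 8 (*Nmur1*), and limma on log2(RPKM + 1) called no gene. In ILC2p 5 of the 8 genes passed the filter on low counts and none was called, where 321 of 9242 genes (3.47%) were called. Of these 5, only *Nmur1* had an unadjusted p under 0.05, as had 897 genes (9.71%), and neither DESeq2 nor limma called any of them, where they called 13.3% and 5.16% of all genes. Separation within both experiments was seen for *Nmur1* alone, with all *Tgfbr2*-/- libraries below both WT libraries of their experiment among LP ILC2s (5.58% of genes tested behaved so) and among ILC2p (5.94%). None of the 8 was higher in this way (7.11% of genes in LP ILC2s, 8.06% in ILC2p).

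**Figure D3:**
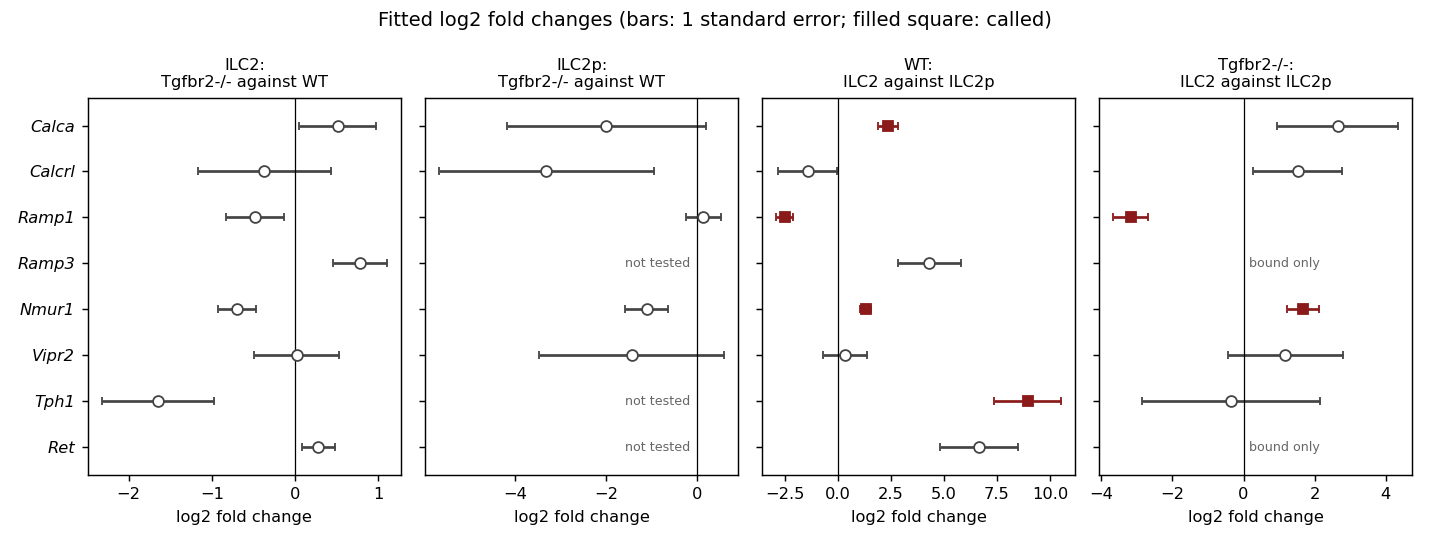
Fitted log2 fold changes of the 8 genes in the 4 comparisons with bars of 1 standard error, filled squares for called genes and open circles for others. Between *Tgfbr2*-/- cell types *Ramp3* and *Ret*, both called, are not drawn and are marked as bound only. Between ILC2p genotypes *Ramp3*, *Tph1* and *Ret* are marked as not tested. *Ramp1* is called lower in LP ILC2s than in ILC2p in both genotypes (-2.49 and -3.17), and no gene is called between genotypes.

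*Calca* (chr7:121774994-121779871, minus strand, positions from GENCODE on NCBIM37, the assembly also named mm9) encodes CGRP and, by alternative splicing, calcitonin, which the counts do not tell apart. WT LP ILC2s had 443, 546, 210.2 and 142.0 CPM and WT ILC2p 34.4, 69.5, 72.3 and 82.0 CPM, so that the groups did not overlap. The difference was 5.19-fold in mean CPM (335 ± 191 against 64.6 ± 20.8, SD, n = 4 each; log2 fold change 2.38, SE 0.47, adjusted p = 0.0418; exact permutation test, two-sided, p = 0.0286, the smallest possible with 70 arrangements). The call was lost without LP WT replicate 1 or 2 of experiment 1 (2.22 and 2.04, adjusted p = 0.112 and 0.143), without ILC2p WT replicate 2 of experiment 1 (2.43, adjusted p = 0.113), without ILC2p WT replicate 1 of experiment 2 (2.43, adjusted p = 0.108) and with all 15 libraries in 1 fit (2.38, adjusted p = 0.494). In the *Tgfbr2*-/- libraries *Calca* was at 216, 634 and 515 CPM in LP ILC2s and at 3.86, 0, 35.4 and 239 CPM in ILC2p. The last ILC2p library lay above the lowest LP library, and the difference was not called (2.65, SE 1.70, adjusted p = 0.551; exact permutation p = 0.0857). By limma on log2(RPKM + 1) it was called (5.08, adjusted p = 0.0837), as were 2205 of 11469 genes tested. Between genotypes the experiments disagreed in direction. Among LP ILC2s the *Tgfbr2*-/- mean was 425 against 494 CPM in experiment 1 and 515 against 176 CPM in experiment 2 (log2 fold change 0.51, SE 0.46, adjusted p = 0.908), and among ILC2p it was 1.93 against 52.0 CPM in experiment 1 and 137 against 77.1 CPM in experiment 2 (-1.99, SE 2.19, adjusted p = 0.909).

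For all of the 8 genes, the 250 bases before each annotated start were sought in RefSeq's promoter windows (GRCm38.p6, a later assembly than that of the files). Windows were found for 7 of the 8 genes, 9 in all, and none for *Ret*. They were searched on both strands for TGACGTCA (cAMP response element, in 1.55% of all 32851 windows), AGATAA with the further GATA forms TGATAA as well as AGATAG and also TGATAG (26.5%), GTCTAGAC (SMAD, 0.167%) and AGGTCA (ROR element, 14.0%). GATA letters stood in 4 of the 9 windows (both of *Nmur1*, 1 of *Calca* and 1 of *Tph1*) and ROR letters in 2 (*Calca* and the downstream window of *Tph1*), at no shared position, and the other motifs in none, which describes the letters and no binding. The window of *Calca*, shown because it held both kinds of match (in capitals: GATA, then ROR, both on the opposite strand), is chr7:114636358-114636607, minus strand:
*Calca*: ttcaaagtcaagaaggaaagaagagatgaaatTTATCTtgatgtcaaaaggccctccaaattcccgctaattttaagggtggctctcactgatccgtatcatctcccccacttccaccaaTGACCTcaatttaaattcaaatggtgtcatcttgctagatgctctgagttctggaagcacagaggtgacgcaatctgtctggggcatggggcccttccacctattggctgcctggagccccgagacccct

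*Calcrl* (chr2:84170783-84265568, minus strand), the chain that pairs with the RAMPs in the CGRP and adrenomedullin receptors named above, had the lowest median RPKM of the 8 genes in LP ILC2s. WT LP ILC2s had 13.4, 5.23, 14.3 and 7.18 CPM and *Tgfbr2*-/- LP ILC2s 3.56, 10.02 and 9.58 CPM, with overlapping groups (log2 fold change -0.37, SE 0.80, adjusted p = 0.976). WT ILC2p varied most, with 71.5, 19.9, 0.0847 and 15.2 CPM, the third value resting on 3 counts. The *Tgfbr2*-/- ILC2p were at 1.29, 0.414, 5.61 and 2.82 CPM, below both WT libraries in experiment 1 and between them in experiment 2 (-3.31, SE 2.36, adjusted p = 0.827). No difference between LP ILC2s and ILC2p was called in WT (-1.41, SE 1.39, adjusted p = 0.897) or in *Tgfbr2*-/- libraries (1.52, SE 1.26, adjusted p = 0.704), and the groups overlapped in both.

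*Ramp1* (chr1:93076399-93121773, plus strand), the partner that gives CALCRL its affinity for CGRP, was the only one of the 8 genes that was higher in ILC2p by the test. WT ILC2p had 484, 224, 331 and 276 CPM and WT LP ILC2s 84.8, 58.7, 63.2 and 27.3 CPM, with every ILC2p library above every LP library. The mean was 5.63-fold higher in ILC2p (329 ± 112 against 58.5 ± 23.7 CPM, SD, n = 4 each; log2 fold change of LP ILC2s against ILC2p -2.49, SE 0.40, adjusted p = 0.0182; exact permutation p = 0.0286), and the call held without each of the 8 libraries in turn. The *Tgfbr2*-/- libraries showed the same pattern, with 372, 552, 192 and 410.3 CPM in ILC2p and 51.9, 50.4 and 34.3 CPM in LP ILC2s. Here the mean was 8.38-fold higher in ILC2p (-3.17, SE 0.49, adjusted p = 0.0125; exact permutation p = 0.0286, the smallest that 35 arrangements allow). Neither genotype comparison was called (LP ILC2s -0.48, SE 0.35, adjusted p = 0.898; ILC2p 0.15, SE 0.39, adjusted p = 0.969, and -0.15 under upper quartile scaling). Relative to the summed ILC2 markers, the log2 difference between ILC2p genotypes was 1.30 (exact permutation p = 0.0556, the smallest possible). Per 100 CPM of markers, *Tgfbr2*-/- ILC2p had 8.67, 13.3, 4.86 and 7.03 CPM, all above WT (3.95, 2.45, 3.35 and 3.31). This scale was chosen after seeing the data and the marker sum was lower in *Tgfbr2*-/- ILC2p, so these values are a description.

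*Ramp3* (chr11:6558524-6577478, plus strand), the partner in an adrenomedullin receptor, went the other way. WT LP ILC2s had 157, 267, 230.5 and 122 CPM and WT ILC2p 0.0891, 21.9, 0.0564 and 17.2 CPM, with no overlap. In ILC2p the first replicate of each experiment held 1 and 2 counts and the second 377 and 710 counts. The mean was 19.8-fold higher in LP ILC2s, but with this spread among ILC2p edgeR did not call it (4.31, SE 1.48, adjusted p = 0.307), while DESeq2 and limma did, as they called 5.77% and 4.17% of all genes. Since *Ramp3* entered through the LP libraries, their calls are a description. In the *Tgfbr2*-/- ILC2p *Ramp3* had 0, 0, 0 and 3 counts, against 226, 389 and 401 CPM in LP ILC2s. *Ramp3* was at least 1593-fold higher in *Tgfbr2*-/- LP ILC2s, a bound set against 3 counts per library (0.213 CPM on average) that covers counting error only. In the 2 libraries of experiment 1 among those ILC2p, 3.36% and 6.32% of the genes at 50 CPM elsewhere were also at 3 counts or fewer, against 0.0278% and 0.0847% in experiment 2. It was called, but it entered the test only through the LP libraries, where it is high, so no p-value is given. Between genotypes in LP ILC2s the *Tgfbr2*-/- libraries averaged 339 ± 98.0 CPM (SD, n = 3) against 194 ± 66.2 CPM in WT (n = 4). The difference had an unadjusted p of 0.0384 but was not called (0.78, SE 0.32, adjusted p = 0.898), and in experiment 1 the groups overlapped. The antisense transcript *Gm11978* overlaps *Ramp3*, and since the strand of the libraries is not stated, reads of the 2 cannot be told apart. The windows of *Ramp1* (chr1:91179572-91179821, plus strand) and *Ramp3* (chr11:6658283-6658532, plus strand) are shown because these partners differed in opposite directions between the cell types, and neither held a match to the 4 motifs:
*Ramp1*: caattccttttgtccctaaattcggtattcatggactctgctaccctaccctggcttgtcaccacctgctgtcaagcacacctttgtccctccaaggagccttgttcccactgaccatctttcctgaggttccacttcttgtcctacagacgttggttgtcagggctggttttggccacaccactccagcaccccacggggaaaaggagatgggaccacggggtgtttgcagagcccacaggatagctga
*Ramp3*: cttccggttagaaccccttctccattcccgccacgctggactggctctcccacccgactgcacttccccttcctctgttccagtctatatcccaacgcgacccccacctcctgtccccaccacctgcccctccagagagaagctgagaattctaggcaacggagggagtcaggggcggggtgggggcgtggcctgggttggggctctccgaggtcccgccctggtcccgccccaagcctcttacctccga

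The 2 patterns together gave the RAMP transcripts an almost reversed make-up. Of the summed RPKM of *Ramp1*, *Ramp2* and *Ramp3*, *Ramp1* made up 19.4%, 8.90%, 12.2% and 8.65% in WT LP ILC2s and 99.96%, 83.8%, 99.97% and 87.7% in WT ILC2p. The *Tgfbr2*-/- libraries had 9.27%, 5.44% and 3.95% in LP ILC2s and at least 99.95% in each of the ILC2p libraries. In each genotype all ILC2p libraries lay above all LP libraries, with means of 12.3% ± 5.01 and 92.9% ± 8.34 in WT and of 6.22% ± 2.74 and 99.99% ± 0.025 in *Tgfbr2*-/- (SD). This separation follows from the levels of *Ramp1* and *Ramp3* given above and is a description. *Ramp2* was at 0 in 13 of the 15 libraries and reached 4.06% in LP WT replicate 2 of experiment 2. Among LP libraries that library held the most endothelial (540 CPM), macrophage and DC (348 CPM) and basophil markers (12.3 CPM), whose part was not tested. The summed RPKM of the 3 genes ranged from 146 to 432 in LP ILC2s and from 78.6 to 250.5 in ILC2p. The length that the RPKM of *Ramp1* was computed over differed between libraries (2.12 to 2.55 kb).

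**Figure D4:**
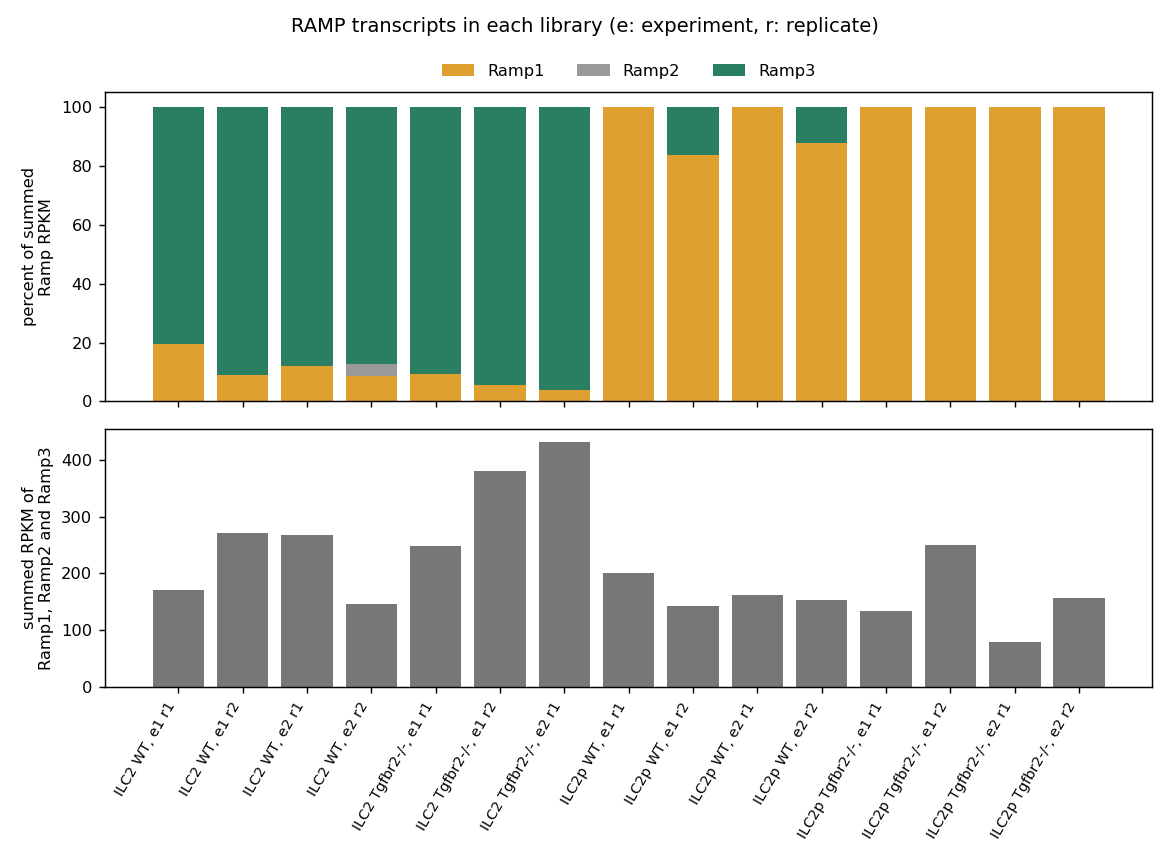
Upper panel, share of *Ramp1*, *Ramp2* and *Ramp3* in their summed RPKM, in percent, for each library (e, experiment; r, replicate). Lower panel, the summed RPKM. *Ramp3* makes up at least 80.6% in every LP ILC2 library and *Ramp1* at least 83.8% in every ILC2p library.

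*Nmur1* (chr1:88282817-88284737, minus strand), the neuromedin U receptor, was high in both cell types and higher in LP ILC2s. WT LP ILC2s had 794, 846, 623 and 901 CPM and WT ILC2p 470.5, 244, 228 and 332 CPM, with every LP library above every ILC2p library. The mean differed 2.48-fold (791 ± 120 against 318 ± 111 CPM, SD, n = 4 each; log2 fold change 1.32, SE 0.27, adjusted p = 0.0428; exact permutation p = 0.0286). This call was close to the threshold: it was lost without LP WT replicate 1 or 2 of experiment 1 (1.31 and 1.28, adjusted p = 0.112 and 0.143), LP WT replicate 2 of experiment 2 (1.25, adjusted p = 0.130), ILC2p WT replicate 2 of experiment 1 (1.22, adjusted p = 0.130) or ILC2p WT replicate 1 of experiment 2 (1.18, adjusted p = 0.110). In the *Tgfbr2*-/- libraries *Nmur1* was at 704, 401 and 427 CPM in LP ILC2s and at 208, 103, 207 and 84.3 CPM in ILC2p, 3.39-fold apart without overlap (1.67, SE 0.44, adjusted p = 0.0453). That call was lost without LP *Tgfbr2*-/- replicate 1 of experiment 1 (1.36, adjusted p = 0.254). It was also lost in experiment 1 alone (1.72, adjusted p = 0.126). Experiment 2 alone, with 1 *Tgfbr2*-/- LP library, did not keep it either (1.52). Relative to the summed ILC2 markers of each library the log2 difference was 0.72 (exact permutation p = 0.314). On this scale, chosen after seeing the data, the groups overlapped.

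Within each cell type *Nmur1* was lower in the *Tgfbr2*-/- libraries, short of a call, and the markers of other cells given above moved with the genotype in both cell types. In LP ILC2s they averaged 511 ± 168 CPM (n = 3) against 791 ± 120 CPM in WT (log2 fold change -0.70, SE 0.23, unadjusted p = 0.0151, adjusted p = 0.898), with means of 553 against 820 CPM in experiment 1 and 427 against 762 CPM in experiment 2. Genotype permuted within experiments gave an exact p of 0.0556, the smallest the design allows, and DESeq2 gave an adjusted p of 0.084. Relative to the summed ILC2 markers of the same library, a scale chosen after seeing the data, the LP genotypes overlapped, with 7.72, 7.64, 5.61 and 7.95 CPM of *Nmur1* per 100 CPM of markers in WT and 8.46, 3.96 and 3.98 in *Tgfbr2*-/- libraries, the first of which lay above all WT libraries. In ILC2p they averaged 151 ± 66.3 against 318 ± 111 CPM (n = 4 each; -1.10, SE 0.47, unadjusted p = 0.043, adjusted p = 0.479, exact permutation p = 0.0556). The ILC2 markers were lower in the same libraries (0.459 times the WT mean, as given above). Relative to them *Nmur1* was at 3.84, 2.66, 2.31 and 3.97 CPM per 100 CPM of markers in WT ILC2p and at 4.85, 2.49, 5.24 and 1.44 in *Tgfbr2*-/- ILC2p, with overlapping groups. Dividing by the marker sum moves every gene of a library alike, and the sum holds genes that were themselves called lower in *Tgfbr2*-/- ILC2p (*Gata3*, *Id2* and *Il1rl1*), so these values describe and do not test the part of other cells.

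*Vipr2* (chr12:117316196-117384734, plus strand), a receptor of VIP and PACAP coupled to cAMP, was at 29.4 CPM or more in every LP library and varied widely among ILC2p libraries. WT LP ILC2s had 160, 66.0, 121 and 29.4 CPM and *Tgfbr2*-/- LP ILC2s 75.6, 131 and 95.1 CPM, with the second group inside the range of the first (log2 fold change 0.02, SE 0.51, adjusted p = 0.996). Both ILC2p genotypes held libraries under 1 CPM beside higher ones: WT libraries had 0.801, 148, 43.7 and 103 CPM, *Tgfbr2*-/- libraries 0.396, 139, 20.6 and 0.811 CPM (-1.43, SE 2.03, adjusted p = 0.927). The 3 libraries under 1 CPM, with 9, 4 and 21 counts, were among the 4 that lacked the most other genes (14.1%, 12.1% and 8.36%), but the other of those 4 (13.8%) had 139 CPM. No difference between the cell types was called in WT (0.36, SE 1.04, adjusted p = 0.973) or *Tgfbr2*-/- libraries (1.18, SE 1.63, adjusted p = 0.876).

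*Tph1* (chr7:53902500-53927907, minus strand), the rate-limiting enzyme of serotonin synthesis outside neurons, was found in all LP libraries and nearly absent from WT ILC2p. WT LP ILC2s had 13.4, 42.8, 99.4 and 24.4 CPM, and WT ILC2p 0, 0, 5 and 7 counts (at most 0.169 CPM). The groups did not overlap (log2 fold change 8.94, SE 1.58), and the 580-fold ratio of the means rests on those few ILC2p counts. *Tph1* entered this test only through the LP libraries, where it is high, so its call is a description and no p-value is given. The call was lost without LP WT replicate 1 of experiment 2, the highest library (8.23), and with all 15 libraries in 1 fit (8.95). Among the *Tgfbr2*-/- libraries 1 ILC2p library decided the result: LP ILC2s had 14.6, 7.65 and 14.4 CPM and ILC2p 0, 0, 59.5 and 0.154 CPM (-0.36, SE 2.50, not called). Without the ILC2p library at 59.5 CPM (1401 counts) the log2 fold change was 7.40, against ILC2p libraries of 0, 0 and 0.154 CPM, which is no test of a difference. Between genotypes in LP ILC2s the mean was 12.2 ± 3.95 CPM in *Tgfbr2*-/- (n = 3) and 45.0 ± 38.3 CPM in WT (n = 4), with an unadjusted p of 0.0375 and no call (-1.65, SE 0.67, adjusted p = 0.898; exact permutation p = 0.222). The groups overlapped in experiment 1. The length behind the RPKM of *Tph1* ran from 1.59 to 4.25 kb among LP libraries, so its RPKM and CPM rank the libraries differently. Its upstream window (chr7:46672538-46672787, minus strand, with a GATA match in capitals) is shown because *Tph1* differed most between the WT cell types among the called genes:
*Tph1*: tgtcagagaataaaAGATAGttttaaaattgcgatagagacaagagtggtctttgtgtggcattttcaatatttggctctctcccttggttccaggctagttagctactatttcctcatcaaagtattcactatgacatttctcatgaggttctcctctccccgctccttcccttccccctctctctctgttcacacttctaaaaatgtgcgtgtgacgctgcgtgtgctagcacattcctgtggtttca

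*Ret* (chr6:118101766-118147762, minus strand), the receptor tyrosine kinase for ligands of the GDNF family, lay between 215 and 361 CPM in all 7 LP libraries. WT libraries had 348, 262, 247 and 215 CPM and *Tgfbr2*-/- libraries 293, 361 and 350.0 CPM (log2 fold change 0.28, SE 0.20, adjusted p = 0.898). In WT ILC2p it was at 0, 0, 10.4 and 0.0484 CPM, the third value being 368 counts. That library set the test: over all 8 WT libraries *Ret* was 103-fold higher in LP ILC2s without a call (6.65, SE 1.82, adjusted p = 0.145), and without it the log2 fold change was 13.02, against ILC2p libraries of 0, 0 and 2 counts, which is no test of a difference. *Ret* was called by limma on log2(RPKM + 1) (4.98), which called 4.17% of all genes, and with all 15 libraries in 1 fit (6.66). Since *Ret* entered through the LP libraries, these calls are a description. All 4 *Tgfbr2*-/- ILC2p libraries had 0 counts, so *Ret* was at least 1574-fold higher in *Tgfbr2*-/- LP ILC2s, against 3 counts per library and for counting error only, with the detection shares given for *Ramp3*. Here too it entered the test only through the LP libraries, and no p-value is given. In 7 of the 8 ILC2p libraries *Ret* had 2 counts or fewer.

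Whether the effect of genotype differed between LP ILC2s and ILC2p was tested over all 15 libraries. None of the 8 genes was called by edgeR, where 127 of 12806 genes tested (0.992%) were called, and 3 of the 8 had an unadjusted p under 0.05, as had 1555 genes (12.1%): *Ramp3* (adjusted p = 0.120), *Ret* (adjusted p = 0.141) and *Tph1* (adjusted p = 0.237). DESeq2 called these 3, where it called 11.7% of all genes, and limma called none, where it called 2.98%. All 3 entered the test only through the LP libraries, so these counts are a description. *Ramp3* and *Ret* rest on ILC2p libraries at or near 0, and *Tph1* also on the *Tgfbr2*-/- ILC2p library with 1401 counts. For *Nmur1* the 2 genotype effects differed by 0.40 on the log2 scale (SE 0.53, adjusted p = 0.907). A single ILC2p library could decide the call of these 3: *Ramp3* was called without WT replicate 1 of experiment 1 (8.86) or of experiment 2 (9.44), *Ret* without WT replicate 2 of experiment 2 (10.40) and *Tph1* without *Tgfbr2*-/- replicate 2 of experiment 2 (-9.60). No p-value is given for these for the same reason.

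The 2 experiments of a cell type were compared as a measure of the spread that genotype does not explain. None of the 8 genes was called between the LP ILC2 experiments (117 of 11981 genes were, 0.977%), and none of 5 between the ILC2p experiments (0 of 9242, 0.0%, with 288 genes at an unadjusted p under 0.05). No gene of the 8 had an unadjusted p under 0.05 in either, and DESeq2 and limma called none of them, where they called 11.2% and 1.44% of all genes between the LP experiments and 4.3% and 0.0% between the ILC2p experiments. The largest fitted shifts were 0.83 for *Tph1* (SE 0.64) and -0.76 for *Calca* (SE 0.47) in LP ILC2s, and 3.29 for *Calca* (SE 2.15) in ILC2p. Of the wider pathway genes described next, *Gnas*, a G protein subunit, was called lower in experiment 2 of the LP ILC2s (log2 fold change -1.0, SE 0.19, adjusted p = 0.0806).

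The wider pathways were read from 10 lists of 156 genes, all present in the files, of which 96 had any count and 35 reached a median of 10 CPM in some condition. Several ligands and receptors that belong with the 8 had no counts. The ligands *Nmu*, *Vip* and *Gdnf* had no count in any library, and neither had *Nms* or the second neuromedin U receptor *Nmur2*. In the RET list none of the 10 ligands and coreceptors reached a median of 10 CPM in any condition, and *Nrtn*, the ligand with the highest median RPKM, was at 0 to 11.03 CPM in WT LP ILC2s. In the serotonin list of 20 genes the vesicular transporter *Slc18a2* had the highest median RPKM over all 15 libraries, with 3.45 to 15.3 CPM in WT LP ILC2s and 0 to 23.7 CPM in WT ILC2p, followed by the receptor *Htr1b* (0 to 5.73 CPM in WT LP ILC2s), which had the higher median RPKM of the pair there (3.66 against 2.84). Among the CGRP and adrenomedullin genes *Crcp*, which encodes a protein linked to CGRP receptor coupling, had 37.8 to 55.3 CPM in WT LP ILC2s and *Calcb*, the second CGRP gene, at most 1.82 CPM. *Nmb*, a bombesin-like peptide, had 0.607 to 15.5 CPM, and *Pomc*, the precursor of opioid and melanocortin peptides, 0.140 to 15.3 CPM in WT LP ILC2s. Over all 15 libraries the median RPKM was 657 for *Rgs1* and 586 for *Gnas*, the stimulatory G protein subunit, in the relay list, 7.97 for *Hdc* and 2.73 for the GABA receptor *Gabbr1*, and 0.658 for *Chrnb1* and 0.00908 for *Chrnb4* among nicotinic receptor subunits.

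In WT LP ILC2s 3 of 37 list genes tested were higher than in WT ILC2p and none lower, where 2.56% of all genes were called, with a median log2 fold change of 0.45. All 3 belong to the relay from G proteins to cAMP, as do 25 of the 37 tested. *Crem*, a cAMP-responsive transcription factor, had 271 to 497 against 8.35 to 40.7 CPM (19.3-fold, log2 4.27, SE 0.53, adjusted p = 0.00424). *Rgs2* and *Rgs1*, which shorten G protein signals, were 7.90-fold and 2.28-fold higher (adjusted p = 0.0004 and 0.0215). In the *Tgfbr2*-/- libraries 9 of 44 were higher and 2 lower in LP ILC2s, with a median log2 fold change of 0.20, where 13.7% of all genes were called. Of the 9, 7 entered the test only through the LP libraries, so the count is a description. *Crem* is one of them, at 192 to 740 CPM in LP ILC2s against 0.198, 1.03, 13.4 and 0.193 CPM in ILC2p (127-fold in mean CPM), and the other 6 had 3 counts or fewer in every ILC2p library. The remaining genes, *Rgs2* and *Rgs1*, were 5.22-fold and 5.10-fold higher (adjusted p = 0.00454 and 0.0238). Bounds against 3 counts per library, for counting error only, were 76.4-fold for the phosphodiesterase *Pde4a*, 64.0-fold for the peptide adrenomedullin (*Adm*), 39.0-fold for the nicotinic receptor subunit *Chrnb1*, 26.3-fold for *Slc18a2* and 11.8-fold for the incretin receptor *Glp1r*, all among those 6.

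*Hdc*, the histamine-forming enzyme that basophils and neutrophil precursors also express, was at 896 to 1232 CPM in *Tgfbr2*-/- ILC2p, 2.20 to 21.1 CPM in WT ILC2p and 3.24 to 18.3 CPM in *Tgfbr2*-/- LP ILC2s, and *Gnai2*, an inhibitory G protein subunit, at 345 to 974, 91.5 to 280.3 and 144 to 169 CPM. Both were called higher in *Tgfbr2*-/- than in WT ILC2p (7.51, SE 0.80, adjusted p = 0.00104, and 1.65, SE 0.33, adjusted p = 0.0356), and *Rgs1* was called lower (-1.75, SE 0.41, adjusted p = 0.0716), as 3 of 30 list genes tested, where 3.47% of all genes were called. In *Tgfbr2*-/- LP ILC2s against *Tgfbr2*-/- ILC2p *Hdc* and *Gnai2* were the 2 list genes called lower (-6.60, adjusted p = 0.00144, and -2.12, adjusted p = 0.0238). Their genotype effects in LP ILC2s and ILC2p differed (*Hdc* -7.85, SE 1.26, adjusted p = 0.0136; *Gnai2* -2.03, SE 0.45, adjusted p = 0.0695), 2 of 52 tested, where 0.992% of all genes were called. Basophil and neutrophil marker sums of the same libraries are given above, and their part was not tested. In LP ILC2s none of 49 list genes was called between genotypes by edgeR, as no gene of all those tested was.

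Levels across libraries of 1 cell type were compared with those of all other genes whose median there was 10 CPM or more, as a description with 7 or 8 points that share depth and sort. In LP ILC2s (8038 genes) the nearest patterns by Pearson's r of log2(CPM + 1) were *Pim2* and *Ptpn6* for *Nmur1* (0.963 and 0.962, Spearman's rho 0.964 for both), *Gm9199* and *Oaz1* for *Ramp3* (0.970 and 0.965), *Alg9* for *Ramp1* (0.965), *Ddit3* and *Epc1* for *Calca* (0.963 and 0.930), *Commd6* and *Dph7* for *Vipr2* (0.992 and 0.968), *Mrpl33* and *Pgm2l1* for *Tph1* (0.900 for both) and *Med15* and *Maml1* for *Ret* (0.975 and 0.969). In ILC2p (6974 genes) they were *Ino80e* and *Slc25a22* for *Nmur1* (0.977 and 0.967), *Fam32a* and *Mrpl35* for *Ramp1* (0.985 and 0.955), *Ccdc101* and *Acin1* for *Calca* (0.989 and 0.977) and *Ubxn7* and *Fam208a* for *Vipr2* (0.992 and 0.989). Among the 8 genes themselves, *Calcrl* left out, pairs were compared over the 7 LP libraries, which mix both genotypes. The lowest r was that of *Nmur1* with *Ramp3* (r = -0.86, rho = -0.75) and the highest that of *Calca* with *Ret* (r = 0.78, rho = 0.79). Other pairs lay close, such as *Ramp1* with *Vipr2* and *Vipr2* with *Ret* (r = 0.75 for both). The lowest rho was that of *Tph1* with *Ret* (rho = -0.86, r = -0.72).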

How the data were processed

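The authors mapped reads with TopHat against mm9, the mouse assembly, and kept up to 15 hits per read, and the submitters' processing notes also name Bowtie2. For each of 15 libraries the authors deposited counts of reads per RefSeq gene, not normalized, beside RPKM normalized to a read number given in the file header. Strand is not stated, and 205 entries join several genes. Tests on the deposited counts used edgeR 4.0.16 (R 4.3.3) with TMM scaling, filterByExpr by condition, quasi-likelihood test, Benjamini-Hochberg adjustment, with experiment as a covariate between genotypes, none between cell types, and cell type by experiment in the fit of all 15 libraries for the difference of genotype effects. The cell types were also compared in 1 fit of all 15 libraries as an alternative. SE is the log2 fold change divided by the square root of F. Single genes were also tested by exact permutation of mean log2(CPM + 1), two-sided, with genotype permuted within experiments. DESeq2 1.42.0 and limma 3.58.1 were alternatives. The tests were run on simulated counts with known fold changes, the same spread for every gene and no difference between experiments. Of 100 genes changed 2-fold, 31% were called between LP genotypes and 40% between ILC2p genotypes. Between cell types 37% were called in WT and 28% in *Tgfbr2*-/- libraries. Of 100 genes changed 8-fold, 100% were called in each comparison. The spread of the real libraries was not simulated, so these shares do not carry over to them.

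The 8 genes, the lists and the tests were chosen with earlier results of these data known. Named from the lists were all called genes (beyond 6 per direction, those of largest fold without overlap) and the 2 of highest RPKM, and a few genes that these rules name are not reported here. Levels relative to the ILC2 markers were added after seeing the data. Levels and figures were made in Python 3.11.15 (pandas 2.3.3 with numpy 2.4.6, and matplotlib 3.10.9).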

Additional observations from a re-analysis of the deposited data

Results flagged for a closer look

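In 5 of the 23 groups of 4 libraries examined for the 8 genes, 1 library stood apart from the other 3 by more than the 95% critical value of Dixon's test. By chance about 1 in 20 groups of normally distributed values would show this, and levels with many values near 0 need not follow that rate. For *Ramp3* the result was fixed by 3 libraries at 0. In *Tgfbr2*-/- ILC2p these were *Tph1* in replicate 1 of experiment 2 (59.49 CPM, 1401 counts, next highest 0.154 CPM), *Calca* in replicate 2 of experiment 2 (238.9 CPM, next 35.4 CPM), *Vipr2* in replicate 2 of experiment 1 (139.2 CPM, next 20.6 CPM) and *Ramp3* in replicate 2 of experiment 2 (0.1159 CPM, which is 3 counts where the others had 0). In WT ILC2p *Ret* stood apart in replicate 1 of experiment 2 (10.38 CPM, 368 counts, next 0.0484 CPM). All 5 lie among ILC2p libraries and none among the LP WT libraries, and *Tph1*, *Calca* and *Vipr2* are high in 3 different libraries. What set these libraries apart was not tested.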

How the results depend on the processing

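Of 725 fold changes of the 8 genes under alternatives, 699 kept their direction and 26 did not. Called genes between WT LP ILC2s and WT ILC2p (4 of 8) became 0 within either experiment and 2 to 4 without 1 library. DESeq2 called *Ramp3* in addition, and limma on log2(RPKM + 1) called *Ramp3* and *Ret* in addition. In 1 fit of all 15 libraries *Ret* was gained, and *Calca* and *Tph1* were lost. Calls of *Ramp3*, *Tph1* and *Ret* are a description, since these genes entered the tests through the LP libraries. Between *Tgfbr2*-/- cell types the 4 became 2 with at least 10 counts in every library (only 2 tested), 0 in experiment 2 alone and 3 to 5 without 1 library. For the difference of genotype effects the 0 became 3 with DESeq2, 1 with library size or upper quartile scaling, 2 without a filter and 0 to 1 without 1 library. In LP ILC2s DESeq2 called 1 gene between genotypes, and without 1 library the count stayed at 0 there and in ILC2p.

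Reversed log2 fold changes between LP genotypes were, for *Vipr2*, -0.16 in experiment 1 alone, -0.19 with the replicate block and -0.22 to 0.49 without 1 library, for *Calca*, -0.24 in experiment 1 alone and -0.25 to 0.98 without 1 library, and for *Calcrl*, -0.75 to 0.10 without 1 library. Between ILC2p genotypes *Ramp1* was -0.08 by limma, -0.06 and -0.15 with library size and upper quartile scaling, -0.10 in experiment 2 alone and -0.10 to 0.38 without 1 library, and *Calca* 0.01 with no experiment term and 0.73 in experiment 2 alone. Between WT cell types *Calcrl* was 0.52 in experiment 2 alone and *Vipr2* -0.02 to 0.98 without 1 library. Between *Tgfbr2*-/- cell types *Tph1* was 1.85 by limma, 0.05 with upper quartile scaling, 10.84 in experiment 1 alone, -0.76 to 7.40 without 1 library and 1.04 relative to the ILC2 markers.

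Over all genes, calls between ILC2p genotypes went from 321 to 1229 with DESeq2, 199 with at least 10 counts in every library, 38 and 77 within an experiment and 175 with the replicate block, which called none of the 8. Between WT cell types 268 became 604 with DESeq2, 436 with limma, 176 without a filter and 5 and 40 within an experiment, and between *Tgfbr2*-/- cell types 1575 became 389 with at least 10 counts (137 higher and 252 lower), 2838 in experiment 1 (2332 and 506) and 44 in experiment 2 (8 and 36). The median log2 fold change over all genes between ILC2p genotypes was -0.10, and -0.40 to 0.03 under other scalings, with 241 called higher and 80 lower (203 and 119 under upper quartile scaling). Same-numbered libraries did not deviate together over all genes (r = -0.054 in LP experiment 1, -0.012 and -0.051 in ILC2p experiments 1 and 2). LP experiment 2, with 1 *Tgfbr2*-/- library, could not be checked. Such values cannot show whether libraries of the same number share animals or a sort, so any pairing is unknown. For the difference of genotype effects 127 became 1502 with DESeq2, 382 with limma, 259 without a filter, 196 and 203 with library size and upper quartile scaling, and 68 at an adjusted p under 0.05, and the 60 higher and 67 lower became 131 and 65, and 146 and 57, under those scalings. Between LP experiments 117 became 1347 with DESeq2, 320 without a filter, 23 and 31 under those scalings and 5 at an adjusted p under 0.05, and between ILC2p experiments 0 became 397 with DESeq2 and 5 without a filter. Without 1 library the calls ranged from 179 to 319 between ILC2p genotypes, 95 to 370 and 1095 to 2384 between WT and *Tgfbr2*-/- cell types, 14 to 407 for the difference of effects and 0 to 10 between LP experiments. Why these values moved was not tested. Depth limits the zeros of *Ret* and *Ramp3* in ILC2p to at most 3 counts per library, for counting error only.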
